A study of Mus musculus with 6 samples.

Results

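Acad10, Atg9b and Atf3 were described here as 3 genes of the 109 that the study deposited. They were chosen by gene symbol from a table that the study had already filtered on the comparison of mogrol-treated with control cells. That filter took a difference of more than 2-fold and, from DESeq2, an adjusted p threshold of 0.05. Bone marrow macrophages (BMMs) of C57BL/6 mice (C57BL/6J in the study's methods), the precursors that fuse into bone-resorbing osteoclasts, received 30 ng/ml of the cytokine RANKL for 5 days in all 6 libraries. In 3 libraries the cells had RANKL without mogrol (control cells) and in 3 they had RANKL with 20 μM mogrol (mogrol-treated cells). Mogrol is the aglycone of the sweet mogrosides of Siraitia grosvenorii. The mice were 6 weeks old, the BMMs were first grown in the growth factor M-CSF, and mogrol was dissolved in DMSO. For the RNA-seq cultures the methods do not say whether control cells received DMSO or whether M-CSF was kept with RANKL. The methods state in general that data came from independent experiments, but neither they nor the labels say for these libraries how many mice gave the cells or whether the 3 of a group came from separate cultures, so the spread between libraries may be technical.

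Mogrol is reported to activate AMPK, the kinase that senses a fall in cellular energy. AMPK is known to favour the burning of fatty acids in mitochondria and the start of autophagy, in which a double membrane encloses cell contents for breakdown. ACAD10 belongs to the acyl-CoA dehydrogenase family, flavin enzymes that take part in the oxidation of acyl chains. ATG9 proteins are membrane-spanning lipid scramblases that bring membrane to the forming autophagosome, and Atg9b is the less widely expressed of both mouse paralogs. ATF3 is a basic leucine zipper transcription factor that is low at rest, is induced by many stresses through ATF4 and other factors, and is known in macrophages as a repressor of inflammatory genes. The table measures RNA only, and AMPK activity was not measured in it.

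The members sit in different genomic settings. Acad10 (ENSMUSG00000029456) lies on GRCm38 chromosome 5, from 121621026 to 121660514, and Atg9b (ENSMUSG00000038295) on the same chromosome from 24384181 to 24392143. Atf3 (ENSMUSG00000026628) lies on chromosome 1, from 191170296 to 191218039. All 3 are on the minus strand, as are 55 of the 109 genes. The bases just before each RefSeq start (build GRCm38.p6, minus strand, written 5′ to 3′) are shown because 2 motifs tied to the stress factors were found before the start of Atf3. Capitals mark those motifs, and for Acad10 only the 52 bases up to the start of its divergent neighbour Brap are given.
Atf3, chr1:191183334-191183583: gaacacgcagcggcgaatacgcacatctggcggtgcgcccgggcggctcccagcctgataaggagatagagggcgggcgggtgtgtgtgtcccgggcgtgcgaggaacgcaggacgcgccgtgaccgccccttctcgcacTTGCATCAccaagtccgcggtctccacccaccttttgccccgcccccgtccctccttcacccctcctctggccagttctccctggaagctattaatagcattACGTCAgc
Atg9b, chr5:24392144-24392393: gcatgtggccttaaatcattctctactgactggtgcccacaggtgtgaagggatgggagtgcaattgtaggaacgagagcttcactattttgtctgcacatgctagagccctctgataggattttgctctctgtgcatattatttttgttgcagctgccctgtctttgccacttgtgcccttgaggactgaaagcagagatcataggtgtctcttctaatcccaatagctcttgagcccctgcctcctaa
Acad10, chr5:121660511-121660562: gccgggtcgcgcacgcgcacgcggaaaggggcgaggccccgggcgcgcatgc

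In the 250 bases before each start, 5 motifs were searched on both strands. These were the cyclic AMP response element TGACGTCA, its half-site TGACGT, which the full element contains, the C/EBP-ATF response element TGATGNAA, the AP-1 site TGANTCA and the E-box CACGTG. Before the RefSeq start of Atf3, the half-site was present on the opposite strand at bases -8 to -3 and TGATGNAA at bases -110 to -103. Here -1 is the base just before the start. In the annotation used for the gene models, transcript Atf3-201 starts at 191183340, so most of the half-site lies inside that transcript. Of 32851 promoters of the same length, 6.47% held the half-site and 3.45% held TGATGNAA. None of the 5 motifs was present before Acad10 or Atg9b, and the full element (1.55% of promoters), the AP-1 site (6.75%) and the E-box (6.02%) were not present before Atf3. The letters are a description of these windows and say nothing of what binds there.
Base composition differed among the members. The share of G and C over the 250 bases was 79.6% for Acad10, above 98.6% of promoters, 65.2% for Atf3 and 47.6% for Atg9b, against a median of 52.4%. The 250 bases held 42 CG pairs before Acad10, 24 before Atf3 and 1 before Atg9b, against a median of 6. Atf3 has a further annotated start 34706 bases upstream of the one shown, so the window covers only the nearer of its starts.

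**Figure D1:**
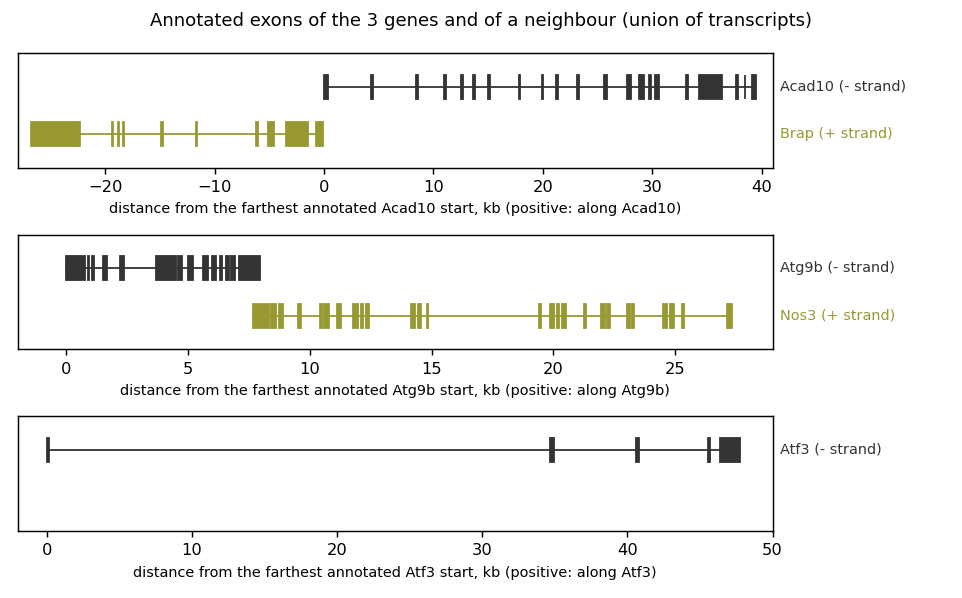
Annotated exons (boxes) of Acad10, Atg9b and Atf3, with Brap and Nos3 as neighbours, against the distance in kb from the farthest annotated start of each member. Brap starts 48 bases from Acad10 on the other strand, the last 294 bases of Atg9b lie under the end of Nos3, and the farthest start of Atf3 is 34699 bases before the next coding start of the same annotation.

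The gene models limit how the read counts can be read. Atg9b and Nos3, the endothelial nitric oxide synthase gene on the opposite strand, share 294 exonic bases, which is 7.45% of the exon length of Atg9b. The strand setting of the counting is not given in the sources used here, so it is not known how reads from this stretch were assigned. Nos3 itself was not analysed here. Acad10 and Brap do not overlap, being 48 bases apart, and Acad12, another family member on the same strand, starts 2087 bases past the end of Acad10. The noncoding gene Gm24748 lies inside an intron of Atf3 and shares no exon with it. The gene lengths behind the FPKM values (6068, 3946 and 2154 bases for Acad10, Atg9b and Atf3) equal the union of all annotated exons of each gene. For Acad10 this union includes retained introns, and its coding transcripts measure 3626 and 3826 bases.

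Read totals behind the 6 libraries, recovered from counts, lengths and FPKM, lay between 18097882 and 18652439, so depth differed little. The deposited genes took up 2.04% to 2.27% of the reads of control libraries but 1.21% to 1.25% of those with mogrol. Most of these reads came from Ctsk, Ckb and Tfrc, so the shares do not describe the other genes of the table. In control libraries Ctsk, Ckb and Tfrc averaged 7801, 5215 and 3914 RPM (reads of a gene scaled to a common library total). With mogrol they averaged 3695, 2551 and 1487 RPM. Every pair of libraries of one group differed by more than counting noise over the 109 genes (chi-square per degree of freedom 5.23 to 40.5). This mean over genes is raised most by those with very many reads, such as Ctsk (1025 among control libraries) and Tfrc (809). Each library was counted as 1 sample by its label, and this spread does not show that the libraries are independent. The cell type could be checked only in part, because the table holds no gene that the study did not select. Of 15 osteoclast markers it holds Ctsk alone, at 7306 to 8545 RPM in control and 3590 to 3849 RPM in mogrol-treated libraries. From the same RNA-seq the study also reported lower MMP9, OSCAR, ACP5, Siglec15 and Atp6v0d2 with mogrol, none of which this table holds. Of 14 macrophage markers it holds 4, all higher with mogrol, with a summed level of 171 to 234 RPM in control and 484 to 532 RPM in mogrol-treated libraries. Of 18 stromal markers it holds 5, all lower with mogrol, summing to 1196 to 1263 RPM and 484 to 529 RPM, and of 12 endothelial markers Angpt2 alone, at 24.0 to 25.1 RPM and 10.8 to 11.9 RPM. None of the markers held in the table was at 0. Their part in the values below was not tested, and in such bulk samples fewer cells of a type and less RNA per cell cannot be told apart.

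Acad10 was lower in mogrol-treated cells. Control replicates 1, 2 and 3 gave 1047, 1247 and 1245 reads, and the corresponding mogrol replicates 524, 480 and 499. The deposited FPKM values (reads scaled by gene length and library total) were 9.32, 11.02 and 11.27 in control and 4.67, 4.37 and 4.48 in mogrol-treated cells. The groups did not overlap, as for all 109 genes of the table. The lowest control library, replicate 1, stood at 56.5 RPM and the highest mogrol library at 28.3 RPM. The level averaged 63.9 ± 6.44 RPM without mogrol against 27.3 ± 0.912 RPM with it (SD, n = 3), so that treated cells held 42.8% of the control level. The log2 fold change was -1.23 (standard error 0.0997), from edgeR's quasi-likelihood fit to the counts of all 109 genes.

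Atg9b was also lower in mogrol-treated cells, from far fewer reads. Control libraries gave 150, 141 and 121 reads and mogrol libraries 64, 39 and 69. Its FPKM was 2.05, 1.92 and 1.68 in control and 0.88, 0.55 and 0.95 in mogrol-treated cells. The groups did not overlap, as for all 109 genes of the table, and mogrol replicate 2 stood below the other mogrol libraries. The 39 reads of that library carry an exact 95% Poisson interval of 27.7 to 53.3, which covers counting error only. It overlaps the interval of mogrol replicate 1 (49.3 to 81.7) and ends just below that of mogrol replicate 3 (53.7 to 87.3). Atg9b averaged 7.43 ± 0.735 RPM without mogrol against 3.12 ± 0.852 RPM with it (SD, n = 3), or 42.0% of the control level. The log2 fold change was -1.25 (standard error 0.203).

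Atf3 was higher in mogrol-treated cells. Control libraries gave 129, 113 and 127 reads and mogrol libraries 338, 261 and 238. Its FPKM was 3.23, 2.81 and 3.24 in control and 8.48, 6.70 and 6.01 in mogrol-treated cells. The control libraries lay close together, and mogrol replicate 1 was the highest of all. Again as for all 109 genes of the table, the groups did not overlap. The level averaged 6.67 ± 0.526 RPM without mogrol against 15.2 ± 2.74 RPM with it (SD, n = 3), a 2.28-fold higher mean. The log2 fold change was 1.19 (standard error 0.156), and without mogrol replicate 1 it was 1.04.

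**Figure D2:**
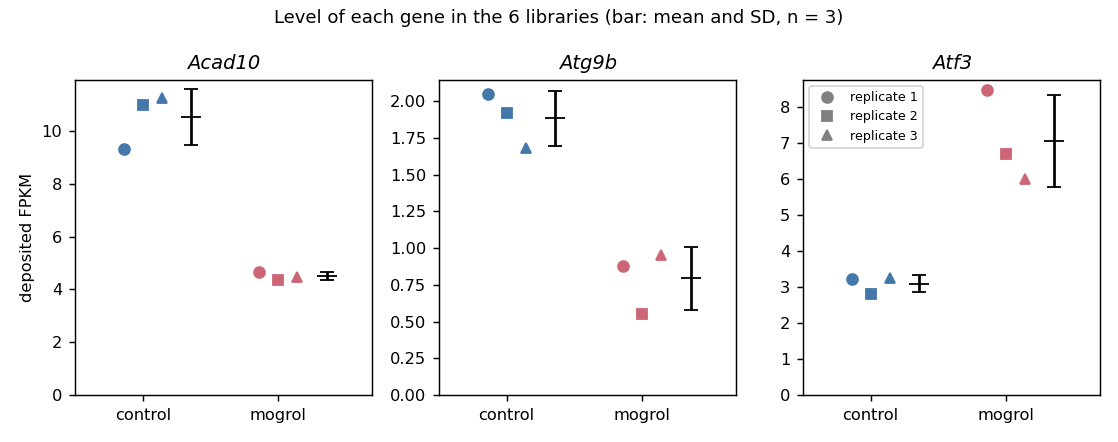
Deposited FPKM of Acad10, Atg9b and Atf3 (vertical axes from 0) in the 3 control and 3 mogrol libraries, marked by replicate, with the mean and SD of each group (n = 3). Control and mogrol libraries do not overlap for any of the 3 genes, as for all 109 genes (100%) of the selected table. The widest group relative to its mean is Atg9b in mogrol-treated cells, at 0.55 to 0.95 FPKM.

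These differences were what put the genes into the table, so no test was applied to them. The study counted 45 genes raised and 64 lowered by more than 2-fold, so its selection largely set the shares past 2-fold given next. Its threshold on adjusted p also favours genes whose groups do not overlap. In the whole table, the groups did not overlap for 109 of 109 genes (100%), and 107 (98.2%) were also past 2-fold, 45 higher (41.3%) and 62 lower (56.9%) with mogrol. Nothing is therefore read from the separation of the 3 members. By size of the log2 fold change Atf3 came 38th among the 45 genes with higher levels, whose median was 1.31. Atg9b came 47th and Acad10 48th among the 64 genes with lower levels, whose median was -1.41. Scaling on the selected genes alone left Acad10 and Atg9b short of 2-fold (-0.80 and -0.83 with TMM, -0.24 and -0.27 with median-of-ratios factors), and adding 1 to FPKM left Atg9b (-0.69) and Atf3 (0.97) short of it. Acad10 had the most reads of the 3, 840 per library on average, and the smallest standard error, whereas Atg9b rested on 97.3 and Atf3 on 201, which is also the median over the table.

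**Figure D3:**
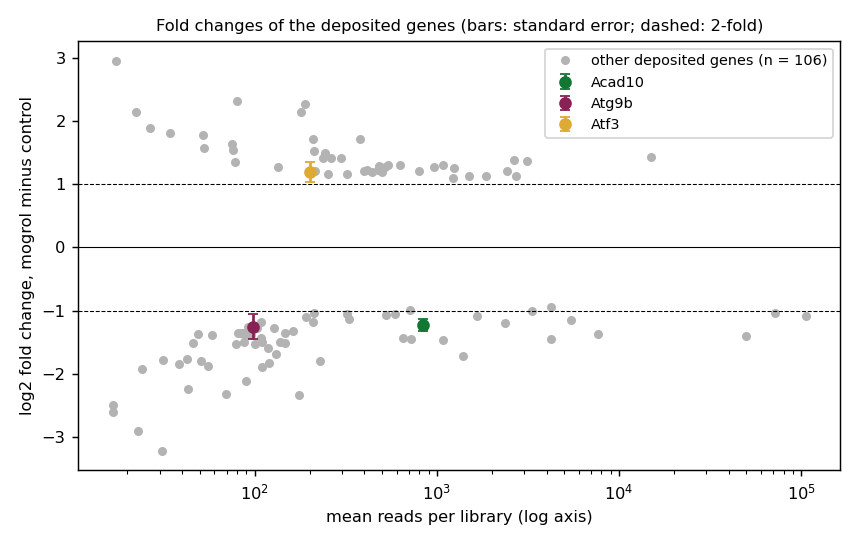
Log2 fold change (mogrol minus control) against the mean reads per library (log axis) for the 109 deposited genes, with the 3 members in colour and their standard errors. The members lie just past the dashed 2-fold lines, at -1.23, -1.25 and 1.19, and larger fold changes in both directions belong to other genes.

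The levels of the members changed order between the conditions on the deposited FPKM scale. In control cells Acad10 was highest (10.5 ± 1.06 FPKM), then Atf3 (3.09 ± 0.245) and Atg9b (1.88 ± 0.188), and the libraries of neighbouring genes in that order did not overlap (SD, n = 3). In mogrol-treated cells Atf3 was highest (7.06 ± 1.27 FPKM), then Acad10 (4.51 ± 0.152) and Atg9b (0.793 ± 0.214), again without overlap. The exchange of Atf3 and Acad10 in mogrol-treated cells rests on the gene length used. Per length of the shortest coding transcript, the mogrol libraries held 7.31 to 7.82 FPKM of Acad10 and 6.79 to 9.58 of Atf3, ranges that overlap. On that scale Acad10 stayed above Atf3 in control cells, at 15.6 to 18.9 against 3.18 to 3.66 FPKM.

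Ratios of a pair of genes within one library need no scaling between libraries. Per gene length, Atf3 stood at 0.347, 0.255 and 0.287 of Acad10 in control replicates 1, 2 and 3 and at 1.82, 1.53 and 1.34 in those with mogrol. All 3 control libraries had less Atf3 than Acad10 and all 3 mogrol libraries more, on the deposited gene lengths. Per length of the shortest coding transcript the mogrol ratios were 1.23, 1.03 and 0.907, so mogrol replicate 3 then had less Atf3 than Acad10, whereas the control ratios lay between 0.172 and 0.234. The choice of length moves all libraries alike and leaves the difference between the conditions as it is. On the log2 scale the ratio was -1.77 ± 0.224 without mogrol and 0.63 ± 0.218 with it (SD, n = 3), a difference of 2.40 or 5.28-fold. Since the genes were selected in opposite directions, this size is a description and not a test.
The ratio of Atg9b to Acad10 showed no separation of the conditions. Per gene length, Atg9b stood at 0.220, 0.174 and 0.149 of Acad10 in control replicates 1, 2 and 3 and at 0.188, 0.125 and 0.213 in those with mogrol, and the groups overlapped. The log2 ratio was -2.48 ± 0.282 without mogrol and -2.55 ± 0.401 with it (SD, n = 3). The difference of -0.07 is smaller than either SD, and leaving out single libraries gave values from -0.22 to 0.16. A difference of that size was therefore not detectable with these libraries. Since both genes were selected as lower with mogrol, this ratio too is a description and not a test.

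**Figure D4:**
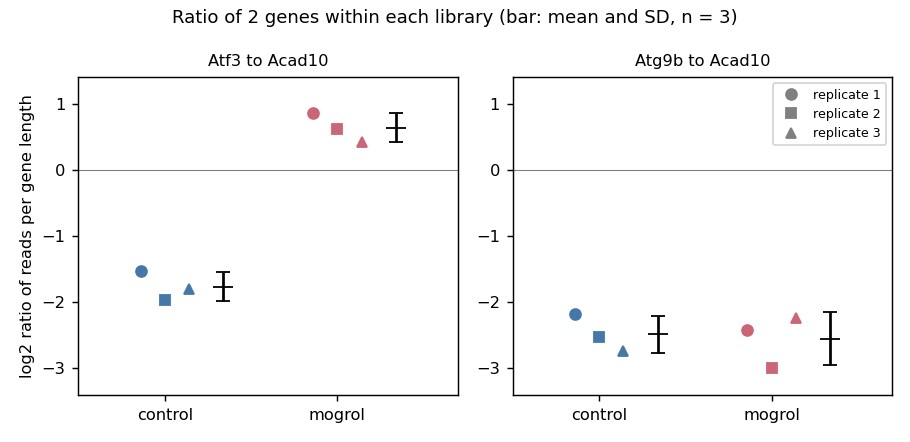
Log2 ratio of reads per gene length of Atf3 to Acad10 and of Atg9b to Acad10 within each library, by condition, with mean and SD (n = 3). On the deposited gene lengths, on which the sign depends, the ratio of Atf3 to Acad10 lies below 0 in the control libraries and above 0 in the mogrol libraries, whereas the ratio of Atg9b to Acad10 overlaps between the conditions.

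The spread between libraries was set beside counting noise. A chi-square per degree of freedom near 1 means that 3 libraries differ by no more than counting noise. It was 12.0 for Acad10 without mogrol and 0.558 with it, 0.770 and 9.12 for Atf3, and 1.33 and 4.22 for Atg9b, against table medians of 3.10 in control and 2.38 in mogrol-treated cells. This measure grows with the number of reads, so it compares a gene with counting noise and not genes with each other. Relative to the mean, the SD in control cells was 10.1% for Acad10, 9.89% for Atg9b and 7.89% for Atf3, which are close, and with mogrol it was 3.34%, 27.3% and 18.0%. Control replicate 1 was the low library for Acad10, mogrol replicate 1 the high one for Atf3 and mogrol replicate 2 the low one for Atg9b. After the group means were removed, the log2 RPM values of the members were nearly unrelated over the 6 libraries, with Pearson r of -0.05 for Acad10 with Atg9b, 0.06 for Acad10 with Atf3 and 0.04 for Atg9b with Atf3. The points share the 6 libraries and 2 group means, and these values are descriptions.

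The genes most like each member were named by Pearson r of log2 RPM over the 6 libraries, which the split between conditions dominates. Of the other genes in the same direction, 61 of 63 had r above 0.9 with Acad10, 40 of 44 with Atf3 and 36 of 63 with Atg9b. Nearest to Acad10 were Akr1c18, a steroid-metabolising reductase (r = 0.998), the tetraspanin gene Tspan7 (0.997) and the integrin gene Itgb7 (0.996). Nearest to Atf3 were the adaptor gene Stap1 (0.986), the inhibitory receptor gene Lilr4b (0.985), whose reads can be split with its paralog Lilrb4a, and Susd3 (0.985). Nearest to Atg9b were Thy1, a surface glycoprotein gene and one of the stromal markers (0.994), Tgtp2, an interferon-induced GTPase gene whose reads can be split with a close paralog (0.981), and Aspn, a matrix proteoglycan gene (0.975).
With the group means removed, r over the 6 libraries was 0.988 for Atg9b with Thy1, 0.955 with Tgtp2 and 0.818 with Aspn. For the genes nearest to Acad10 it was 0.810 to 0.921 and for those nearest to Atf3 0.756 to 0.821. All these genes were picked for a high r, so such values are not particular to Atg9b. Thy1 had 4.55 RPM on average in control and 1.74 in mogrol-treated cells and Aspn 3.58 and 1.05, so all rest on few reads. Whether Atg9b reads came from the same cells as those of Thy1 was not tested.

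Few relatives of the members are in the table. It holds 0 of 28 AMPK subunits and regulators, 1 of 28 genes of mitochondrial fatty acid oxidation (Acad10), 1 of 38 genes of the autophagy machinery (Atg9b), 1 of 27 genes of the integrated stress response and 1 of 27 basic leucine zipper genes (Atf3 for both). The other genes of these lists were not analysed here, and since the table holds selected genes only, their levels cannot be read from it. By the deposited gene ontology terms, Atg9b is the only gene of the 109 assigned to the autophagosome and Acad10 the only one with acyl-CoA dehydrogenase activity. Atf3 is the only one assigned to gluconeogenesis or to a term worded as response to stress. Terms for particular kinds of stress or defence were not searched, so other genes of the table may carry them. Acad10 is also 1 of 7 genes assigned to the mitochondrion, 2 of which were higher and 5 lower with mogrol, and 1 of 8 assigned to the oxidation-reduction process, of which 1 was higher and 7 lower. Of all 109 genes 64 (58.7%) were lower, and neither count was tested against that share.

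**Figure D5:**
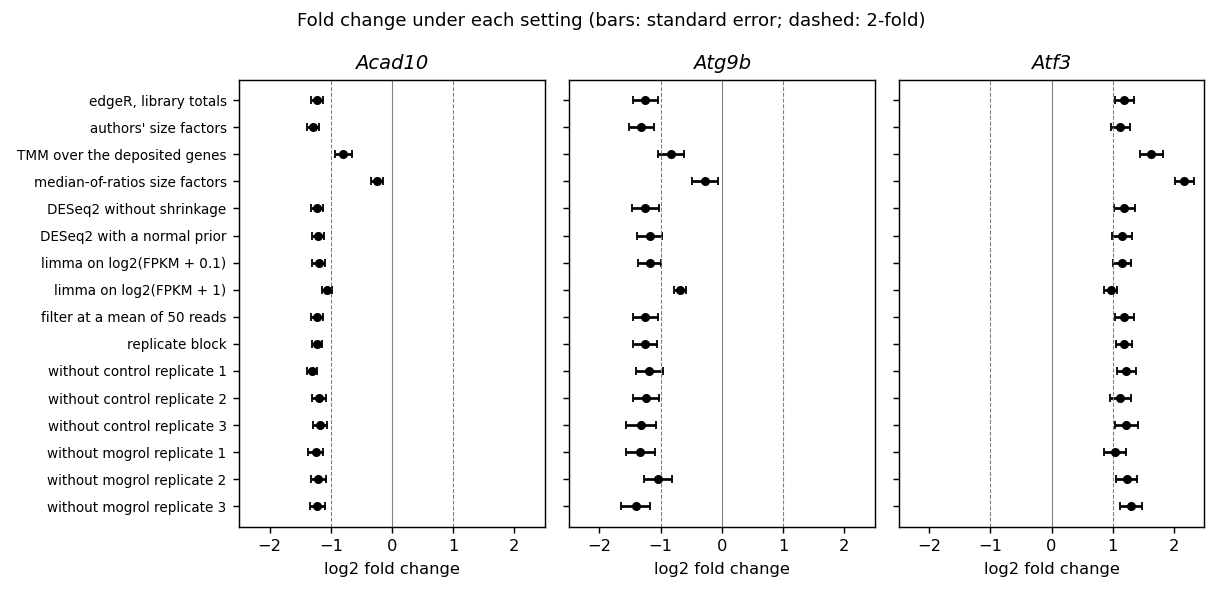
Log2 fold change of Acad10, Atg9b and Atf3 with its standard error under the main fit and 15 alternatives, one per line, with dashed lines at 2-fold. No setting changes a direction, and the 2 settings that scale libraries on the selected genes alone move all 3 genes to the right.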

How the data were processed

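RNA-seq of 3 control and 3 mogrol libraries was used, their group and number being read from the titles. The submitters' processing notes name cutadapt 1.9.1, HISAT2 2.0.1, HTSeq 0.6.1 and GRCm38, and the use of strand in counting is not given in the sources used here. The authors' deposited table holds raw read counts per gene, not normalized, and the authors' FPKM, rounded to 2 decimals. Its column of mean normalized counts, a signal that the authors made with DESeq2 size factors, served only to recover those factors. The authors' log2 fold changes and p-values, on which they had selected the 109 genes, were not used. All per-sample columns were assigned.

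Library totals were recovered from counts, lengths and FPKM, and gave back every FPKM value to 2 decimals. Log2 fold changes and standard errors (the fold change divided by the root of F) came from edgeR 4.0.16 (R 4.3.3) on all 109 genes, with these totals as library sizes and no filter, prior count or covariate. The fit was tested on simulated data in which most genes were unchanged and all had the same spread. The deposited genes differ in both respects, so that test does not show how well the standard errors hold here. No p-value is given, because the table was selected on the same contrast. Counting intervals are exact Poisson, at 95%. Alternatives used other scalings, DESeq2 1.42.0, limma 3.58.1 on log2 FPKM after adding 0.1 or 1, a filter at a mean of 50 reads, a replicate block and each library left out. Identifiers of all 109 genes were in GENCODE M21 (GRCm38), 107 with the same start and end, and RefSeq promoters (GRCm38.p6) were found for all 3 members. The members, gene lists and motifs were chosen with earlier results of these data known. Genes named are the members, the 3 genes nearest to each by Pearson r, the 3 genes with the most reads, list genes in the table and annotated neighbours.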

Additional observations from a re-analysis of the deposited data

How the results depend on the processing

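The log2 fold changes of Acad10, Atg9b and Atf3 kept their direction under all 15 alternatives. Scaling on the deposited genes alone moved the median gene by 0.42 (TMM) or 0.98 (median-of-ratios), because these methods centre a selected set with more lower than higher genes. With TMM the values were -0.80 for Acad10, -0.83 for Atg9b and 1.63 for Atf3, and 30 genes of the table were past 2-fold lower. With median-of-ratios size factors they were -0.24, -0.27 and 2.17, and 8 genes were past 2-fold lower. Neither touches the ratio of a pair of members within a library. Limma on log2(FPKM + 1), where the added 1 shrinks low genes, gave -1.06, -0.69 and 0.97, with 25 genes past 2-fold higher and 27 lower. Relative to the totals, the authors' size factors were higher by 0.07 on the log2 scale in mogrol-treated than in control libraries. With them the values were -1.30, -1.32 and 1.12.

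Across the fits that left out one library, Acad10 ranged from -1.31 to -1.17, Atg9b from -1.40 to -1.04 and Atf3 from 1.04 to 1.29. In each of them 45 genes were past 2-fold higher, and from 60 to 63 were lower, counts that the study's own 2-fold selection largely set. The log2 ratio of Atf3 to Acad10 changed by 2.29 to 2.52, and that of Atg9b to Acad10 by -0.22 to 0.16. Under the replicate block, a fit with the replicate number as a term, the values were -1.22, -1.26 and 1.18, with 45 genes higher and 62 lower, and no call of a member changed. Departures from the group mean in a control library and the mogrol library of equal number had r of 0.0839, 0.197 and 0.0666 across genes. With 3 libraries per group and selected genes, these values cannot settle whether the numbers pair the libraries. Depth limits Atg9b most, since its mogrol libraries held 39 to 69 reads.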
